A study of Caenorhabditis elegans with 8 samples.

Results

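Of 5 genes of the gut granules that were examined, 2, *lro-1* and *glo-3*, were higher in every library from nematodes treated with UA than in every control library, an order found in 3.06% of all genes tested, while *glo-1*, *glo-4* and *cdf-2* gave overlapping values. The genes are *lro-1* (CELE_W05H9.1), *glo-1* (CELE_R07B1.12), *glo-3* (CELE_F59F5.2), *glo-4* (CELE_F07C3.4) and *cdf-2* (CELE_T18D3.3). They are 5 of the 46928 genes in the deposited count table, and all 5 were among the 13720 genes with enough counts to be tested. They were selected by name with their UA and control values already known. The difference between the conditions is therefore given for them as a description. Calls printed for them below show where they stand among all genes and do not serve as tests.

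RNA was sequenced from whole *C. elegans* of the wild-type strain N2, fed on OP50 bacteria, in 8 libraries of pooled animals. The 4 UA populations were grown on medium with 50 μM urolithin A (UA), a compound that gut bacteria make from plant ellagitannins, and the 4 control populations were untreated. The deposited design starts UA at the L4 larval stage and ends it at day 4 of adulthood, whereas the methods place the harvest for RNA at day 1.

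Gut granules are acidic, autofluorescent compartments of the intestinal cells of *C. elegans*, related to lysosomes and to the pigment granules of other animals. They are built by a trafficking route of their own, in which a Rab GTPase and its activator act with the adaptor complex AP-3, the BLOC-1 complex and the HOPS tethering complex. They store zinc and other metal ions, and they hold ABC transporters and enzymes that assemble small signalling molecules.

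Library totals ran from 41890058 to 43055719 fragments, and libraries of a condition varied with a biological coefficient of variation of 0.16. Levels are given as CPM, counts scaled to the TMM-normalized library size, with scaling factors from 0.964 to 1.031. Over all genes tested, the median log2 fold change of UA over control was -0.003, and the median standard error of a gene was 0.14. A gene was called a DEG where edgeR's quasi-likelihood F test gave an unadjusted p under 0.05 with a change of more than 1.2-fold, the thresholds of the study. This gave 778 DEGs, or 5.67% of the genes tested, with 565 or 4.12% higher and 213 or 1.55% lower in UA. At an adjusted p under 0.05 (Benjamini-Hochberg), 13 genes or 0.0948% were called, and 115 with the replicate number as a block. The 4 UA values lay all below the 4 control values in 1.72% of genes.

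*lro-1* was the most abundant of the 5 genes. It had 348, 372.4, 364.9 and 387.7 CPM in the 4 UA libraries, against 213.2, 238.1, 274.9 and 268.1 CPM in the 4 control libraries. The lowest UA library thus lay above the highest control library, and the gap between the conditions was wider than the spread within either. The mean was 368.3 ± 16.5 CPM in UA and 248.6 ± 28.5 CPM in control (SD, n = 4 each), a fold of 1.48 and a log2 fold change of 0.57 with a standard error of 0.08. These values rest on 15176 to 16385 fragments per UA library and 9170 to 11409 per control library. The spread between UA libraries was 4.47% of their mean and that between control libraries 11.5%, where counting error alone gives 0.797% and 0.974%, so the number of populations and not the depth limits this value. *lro-1* met the DEG rule, also in 8 of 8 fits that left out 1 library, and 508 of the 13720 genes had a larger log2 fold change. It was 1 of the 13 genes at an adjusted p under 0.05, a call that it kept with the replicate block. Of the 8 fits, only 2 kept that call, those without control replicate 1 or control replicate 3. As *lro-1* was chosen with these values known, the calls describe it and are no test. In whole animals, a larger share of intestinal cells and more RNA per cell cannot be told apart.

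*glo-3* encodes a membrane protein of the gut granules without which they do not form. It had 5.92, 5.998, 4.52 and 4.496 CPM in UA libraries, against 3.46, 2.91, 3.64 and 3.70 CPM in control libraries. All 4 UA values exceeded all 4 control values, and the UA values of replicates 1 and 2 stood above those of replicates 3 and 4. The mean was 5.23 ± 0.838 CPM in UA and 3.43 ± 0.359 CPM in control (SD, n = 4 each), a fold of 1.53 and a log2 fold change of 0.61 with a standard error of 0.15. This was close to the log2 fold change of *lro-1*, from far fewer fragments, 188 to 260 per UA library and 128 to 154 per control library. The spread of 16.02% between UA libraries and of 10.5% between control libraries compares with a counting error of 6.67% and 8.29%. *glo-3* met the DEG rule, also in 8 of 8 fits that left out 1 library, but did not reach an adjusted p under 0.05. These calls too describe a gene chosen with its values known. A larger log2 fold change was found in 428 genes.

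*glo-1* encodes a Rab GTPase found on the gut granules, and *glo-4* a predicted exchange factor, proposed to act on GLO-1. *glo-1* had 2.62, 2.22, 2.81 and 2.63 CPM in UA libraries, against 2.67, 2.18, 3.04 and 2.93 CPM in control libraries. Its conditions overlapped, with the highest and the lowest value both in control, and the log2 fold change was -0.08 with a standard error of 0.16. With 96 to 117 fragments per UA library and 96 to 126 per control library, the spread of 9.82% in UA and 14.1% in control compares with a counting error of 9.55% and 9.34%, so that counting error makes up most of the spread in UA.

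*glo-4* had 39.7, 43.4, 41.7 and 46.0 CPM in UA libraries, against 39.8, 39.8, 37.9 and 46.3 CPM in control libraries. The highest control library lay above every UA library. Its mean was 42.7 ± 2.69 CPM in UA and 40.9 ± 3.68 CPM in control (SD, n = 4 each), with a log2 fold change of 0.06 and a standard error of 0.07, the smallest standard error of the 5 genes. Neither *glo-1* nor *glo-4* met the DEG rule, and the differences between their fold changes and that of *glo-3* were not tested.

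*cdf-2* encodes a zinc transporter of the cation diffusion facilitator family, which moves zinc into the gut granules for storage. It had 2.004, 2.215, 4.905 and 2.65 CPM in UA libraries, against 2.0, 2.729, 4.288 and 4.494 CPM in control libraries. UA replicate 3 and control replicates 3 and 4 were high, and the conditions overlapped over nearly their whole range. The mean was 2.94 ± 1.33 CPM in UA and 3.38 ± 1.21 CPM in control (SD, n = 4 each), with a log2 fold change of -0.20 and a standard error of 0.34. The spread between libraries, 45.4% in UA and 35.8% in control, was several times the counting error of 8.94% and 8.37%. Without UA replicate 3 the log2 fold change was -0.56, and without control replicate 4 it was -0.03, so the value for *cdf-2* depends on single libraries. In all, 2 of the 5 genes met the DEG rule, both in the direction in which 4.12% of all genes did, and from genes chosen with these values known nothing further is read from that count.

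**Figure D1:**
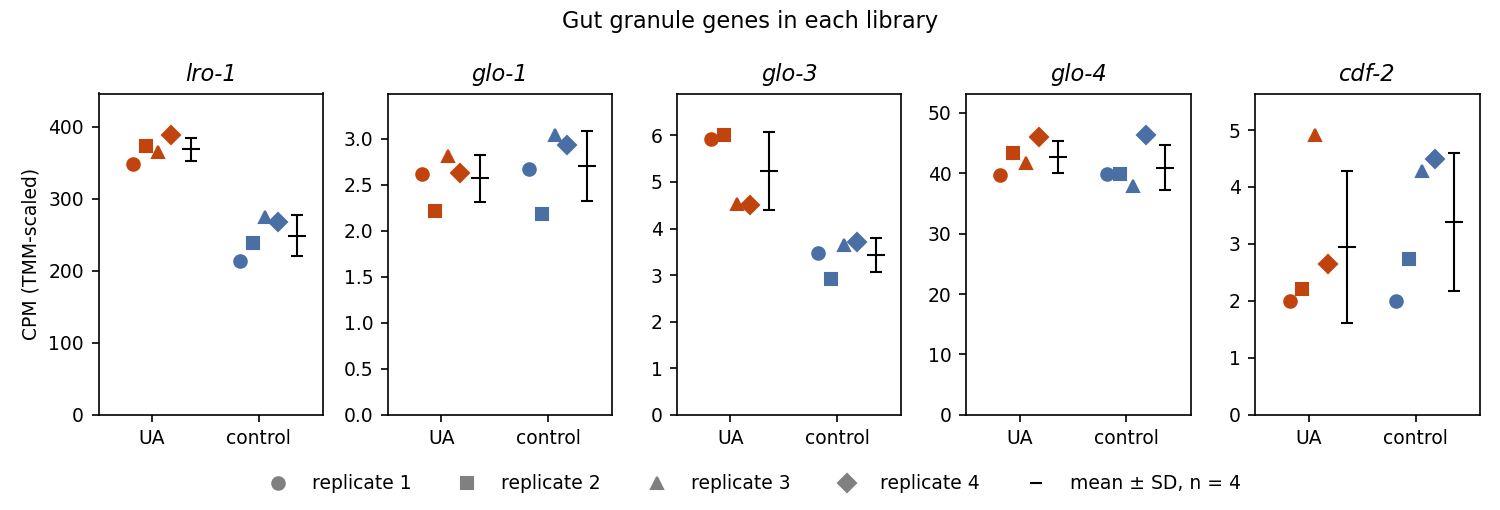
CPM of each of the 5 genes in each UA and control library (markers by replicate number, y axes from 0 and separate for each gene), with the mean and SD of the 4 libraries of a condition beside them. The UA points of *lro-1* (348 to 387.7 CPM) and *glo-3* (4.496 to 5.998 CPM) lie above all their control points, while those of *glo-1*, *glo-4* and *cdf-2* overlap them.

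Levels of different genes were compared per exon length, as TPM. *lro-1* stood at 375.3 ± 12.8 TPM in UA and 250 ± 25.4 TPM in control (SD, n = 4 each), rank 367 in UA and rank 590 in control among the 13720 genes. *glo-4* came next with 12.6 ± 0.666 TPM in UA and 11.9 ± 1.23 TPM in control, followed by *glo-1* with 4.58 ± 0.433 TPM in UA and 4.76 ± 0.587 TPM in control. The steps from *lro-1* to *glo-4* and from *glo-4* to *glo-1* exceeded the spread of the libraries in each condition. The libraries of *glo-1* also lay above those of *glo-3*, which stood at 3.33 ± 0.574 TPM in UA and 2.15 ± 0.199 TPM in control. *cdf-2* stood at 2.94 ± 1.31 TPM in UA and 3.33 ± 1.16 TPM in control. *cdf-2* was the lowest of the 5 in UA and *glo-3* the lowest in control, but the range of *cdf-2*, 2.04 to 4.87 TPM in UA and 1.99 to 4.48 TPM in control, overlapped that of *glo-3* in both conditions, and that of *glo-1* too, so its place in the order is not resolved. The fragments of *lro-1* made up 87.3% of those counted on the 5 genes in UA and 83.1% in control.

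Replicates 1 and 2 of both conditions have been seen to differ from replicates 3 and 4 in these data, a grouping that the labels do not name, so the values were also taken within it. By replicate number, the UA to control ratio of *lro-1* was 1.63, 1.56, 1.33 and 1.45, above 1 in 4 of 4 replicates. Its log2 fold change was 0.69 (standard error 0.06) in replicates 1 and 2 and 0.47 (standard error 0.06) in replicates 3 and 4. *lro-1* was thus higher in UA in each pair of replicates, with the smaller difference in replicates 3 and 4.

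The UA to control ratio of *glo-3* by replicate number was 1.71, 2.06, 1.24 and 1.22, also above 1 in 4 of 4 replicates. Its log2 fold change was 0.91 (standard error 0.17) in replicates 1 and 2 but 0.30 (standard error 0.19) in replicates 3 and 4. The mean of *glo-3* in UA was 5.96 CPM in replicates 1 and 2 and 4.51 CPM in replicates 3 and 4, whereas its mean in control was 3.19 CPM and 3.67 CPM. The larger ratio in replicates 1 and 2 therefore came with a higher UA level and a lower control level. The difference between the pairs was not tested for *lro-1* or *glo-3*.

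For the other genes the ratio fell on either side of 1. UA was higher in 1 of 4 replicates for *glo-1* (0.896 to 1.02) and in 2 of 4 for *glo-4* (0.9949 to 1.103) and *cdf-2* (0.590 to 1.14). *cdf-2* differed more between the pairs of replicates than between the conditions, with a mean of 2.24 CPM over the 4 libraries of replicates 1 and 2 and of 4.08 CPM over those of replicates 3 and 4, a ratio of 1.83. For the remaining genes this ratio was 0.894 to 1.18.

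**Figure D2:**
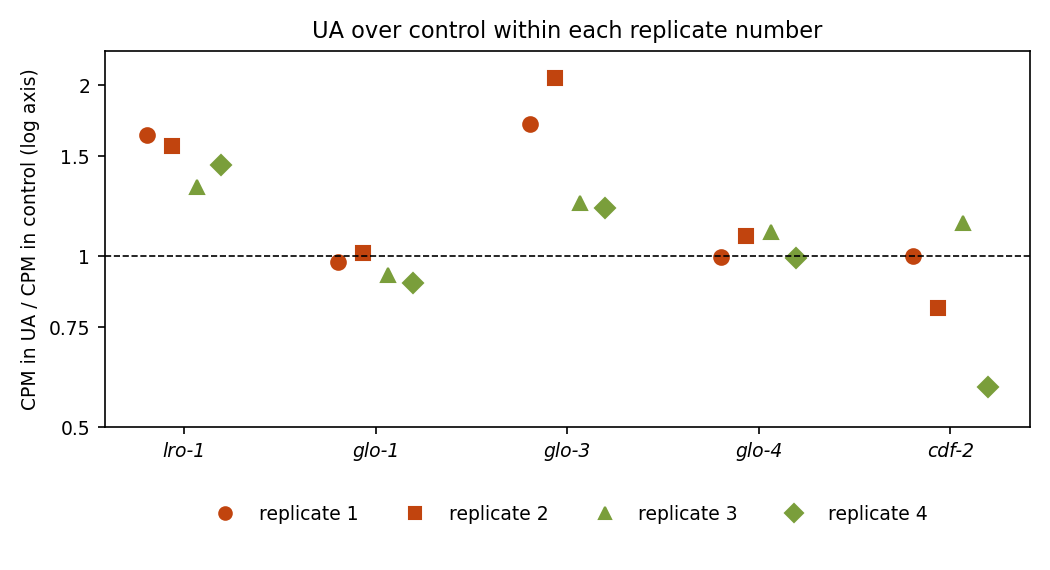
Ratio of CPM in UA to CPM in control for libraries of the same replicate number, by gene, on a log axis, with a dashed line at a ratio of 1. All 4 ratios lie above 1 for *lro-1* (1.33 to 1.63) and *glo-3* (1.22 to 2.06), and those of the other genes lie on either side of it.

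On the WBcel235 assembly, 4 of the 5 genes lie on chromosome X and *glo-4* on chromosome V, with the same span in the count table and in the Ensembl annotation. *lro-1* is a compact gene on the plus strand, from 6272089 to 6273768 on X, with 7 merged exons of 1329 bases in all and a longest protein of 414 residues. *glo-1*, from 9872795 to 9882212 on X (minus strand), has 5 exons of 760 bases and a largest intron of 7249 bases, and encodes 212 residues. *glo-3*, from 10533699 to 10537131 on X (plus strand), has 12 exons of 2135 bases and encodes 607 residues. *glo-4*, from 9234610 to 9243221 on V (minus strand), has 17 exons of 4594 bases and encodes 1386 residues. *cdf-2*, from 12464640 to 12466917 on X (minus strand), has 8 exons of 1352 bases and encodes up to 360 residues.

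The gene tested nearest on each side of a member was examined, to see whether it moved with the member. *lro-1* shares no bases with its neighbours. W05H9.2, which ends 994 bases away, had a log2 fold change of 0.01 (standard error 0.05, edgeR adjusted p = 0.979). The collagen gene *col-166* on its other side had a log2 fold change of -0.24 (standard error 0.22, edgeR adjusted p = 0.888), and neither neighbour met the DEG rule.

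The 3' end of *glo-3* overlaps the exons of F59F5.3 on the opposite strand by 26 bases, and the sources used here do not say whether fragments were assigned by strand. F59F5.3 was low, with 0.638, 0.461, 0.914 and 0.521 CPM in UA libraries, against 0.279, 0.409, 0.626 and 0.385 CPM in control libraries. Its log2 fold change was 0.57 with a standard error of 0.33 (edgeR adjusted p = 0.775), in the direction of *glo-3* but with overlapping conditions.

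On the other side of *glo-3*, 658 bases away and on the same strand, lies *slcf-1*, a gene of the monocarboxylate transporter family. It had 5.24, 5.72, 3.75 and 3.27 CPM in UA libraries, against 3.26, 3.14, 3.18 and 3.70 CPM in control libraries. As with *glo-3*, UA replicates 1 and 2 were the high libraries, but UA replicate 4 overlapped the control libraries. The log2 fold change of *slcf-1* was 0.44 with a standard error of 0.19 (edgeR adjusted p = 0.679). *slcf-1* met the DEG rule, the only 1 of the 10 neighbours to do so, where 5.67% of all genes did. It kept this in 3 of the 8 fits that left out 1 library and lost it without UA replicate 1 or 2 or without control replicate 1, 2 or 3, and also with the replicate block. R07B1.9 lies inside the largest intron of *glo-1* without sharing exon bases, and its log2 fold change was -0.45 with a standard error of 0.39 (edgeR adjusted p = 0.872). The other neighbour of *glo-1*, *gst-36*, and those of *glo-4* (F07C3.3 and *aat-2*) and *cdf-2* (T18D3.1 and *myo-2*) had log2 fold changes from -0.04 to 0.18.

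Other genes of the organelle and of its cargo were followed in 7 lists, 106 genes in all, of which 100 were tested. In the main fit, DEGs made up 7 of these 100 genes or 7%, 6 higher and 1 lower in UA. This was near the share of all genes, 5.67%. None reached an adjusted p under 0.05 in edgeR (10 at an unadjusted p under 0.05). DESeq2 called 1, *cest-4*, against 169 of all genes. With the replicate block edgeR called 2, *cest-4* and *ftn-1*, against 115 of all genes. With no filter on low counts edgeR called 1, against 45 of all genes. In replicates 1 and 2 alone edgeR called 8, against 546 of all 13720 genes, a larger share that was not tested. Without UA replicate 3 the DEGs of the lists were 4. The median log2 fold change of the 100 genes was 0.002.

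None of the 28 genes of granule formation was a DEG, and none had an unadjusted p under 0.05 in edgeR or DESeq2. Most encode subunits of AP-3, BLOC-1 and HOPS, further Rab GTPases or their regulators. The log2 fold changes of the 28 genes ran from -0.13 to 0.12, with a median of -0.003. *glo-2*, a BLOC-1 subunit, averaged 2.001 ± 0.242 CPM in UA and 1.957 ± 0.0919 CPM in control (SD, n = 4 each). *vps-39*, a HOPS subunit and the most abundant of the list, averaged 212.2 ± 4.97 CPM in UA and 218.9 ± 11.4 CPM in control. *lro-1* and *glo-3*, at 0.57 and 0.61, lay outside the range of these 28 genes, and *glo-1* and *glo-4* within it. As these genes were chosen with their values known, this position describes them and was not tested.

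Among the 5 ABC transporters, 1 was a DEG, or 20% against 5.67% of all genes. *pgp-2*, a P-glycoprotein of the gut granule membrane, had 28.19, 28.44, 26.95 and 26.07 CPM in UA libraries, against 21.67, 21.06, 20.19 and 26.12 CPM in control libraries. Control replicate 4 reached the level of the lowest UA library, and the other 3 control libraries lay below all of the UA libraries. The log2 fold change was 0.30 with a standard error of 0.09 (edgeR adjusted p = 0.385), and without control replicate 3 it was 0.26 and *pgp-2* was no longer a DEG. The log2 fold change of *pgp-2* was 0.42 in replicates 1 and 2 and 0.19 in replicates 3 and 4. *mrp-4*, the most abundant of the list, averaged 451.8 ± 20.7 CPM in UA and 471.8 ± 32.25 CPM in control (SD, n = 4 each).

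None of the 20 tested genes of zinc transport and response was a DEG over the 8 libraries, and none had an unadjusted p under 0.05 in edgeR or DESeq2. The median log2 fold change of these 20 genes was 0.008, with a range from -0.22 to 0.27. In replicates 1 and 2 alone, 2 were DEGs, both lower in UA, where 1616 of all 13720 genes were DEGs. In replicates 3 and 4 alone, 3 were DEGs, all higher in UA, where 761 of all genes were DEGs. The list held the zinc exporter *ttm-1* (39.6 CPM in UA and 36.5 CPM in control), the zinc sensor *hizr-1* (2.26 CPM in UA and 1.90 CPM in control) and the metallothionein *mtl-1*. *mtl-1* averaged 28.2 ± 11.2 CPM in UA and 23.8 ± 4.74 CPM in control (SD, n = 4 each), with a log2 fold change of 0.24 and a standard error of 0.26. It had 18.58, 18.87, 34.38 and 40.89 CPM in UA libraries, against 20.44, 30.29, 24.38 and 20.09 CPM in control libraries. *zipt-1*, the most abundant, averaged 182 ± 9.15 CPM in UA and 184.8 ± 11.4 CPM in control.

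Of the 14 tested genes of heme, copper and iron, 1 was a DEG and lower in UA, or 7.14% against 5.67% of all genes. *chca-1*, which belongs to the copper uptake transporters, had 2.504, 2.399, 1.779 and 1.42 CPM in UA libraries, against 2.88, 2.64, 4.10 and 2.74 CPM in control libraries. All UA values lay below all control values, with control replicate 3 far above the other control libraries. The log2 fold change was -0.61 with a standard error of 0.23 (edgeR adjusted p = 0.555), and *chca-1* was no longer a DEG without UA replicate 3, UA replicate 4 or control replicate 3. It was -0.16 in replicates 1 and 2 and -1.097 in replicates 3 and 4. The ferritin gene *ftn-1* averaged 17.98 ± 9.42 CPM in UA and 29.02 ± 13.3 CPM in control (SD, n = 4 each), with a log2 fold change of -0.69 and a standard error of 0.41 (edgeR adjusted p = 0.794, or 0.0455 with the replicate block). The other ferritin gene, *ftn-2*, the most abundant of the list, averaged 206.7 ± 14.1 CPM in UA and 181.5 ± 8.26 CPM in control and had a log2 fold change of 0.19, under the fold threshold.

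The kynurenine pathway breaks down tryptophan and makes the anthranilates that give gut granules part of their blue fluorescence. Over the 8 libraries, none of its 9 tested genes was a DEG or had an unadjusted p under 0.05 in edgeR or DESeq2. The median log2 fold change was -0.10. In replicates 1 and 2 alone, 2 were DEGs, both lower in UA, where 1616 of all 13720 genes were DEGs. In replicates 3 and 4 alone, 2 were DEGs, both higher in UA, where 761 of all genes were DEGs. *umps-1*, which feeds products of the pathway into NAD synthesis and was the most abundant, averaged 147.8 ± 6.57 CPM in UA and 158.5 ± 7.73 CPM in control (SD, n = 4 each).

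Carboxylesterases of the CEST family include enzymes that assemble modular ascarosides and glucosides in the gut granules. Of 6 listed, 2 were DEGs, both higher in UA, or 33.3% against 5.67% of all genes in either direction. The list is short and was chosen with earlier results of these data known, and its share was not tested. *cest-4* had 23.79, 27.11, 18.25 and 18.98 CPM in UA libraries, against 14.11, 13.03, 12.38 and 11.17 CPM in control libraries. The conditions did not overlap, and UA replicates 1 and 2 were the highest, as for *glo-3*. The log2 fold change of *cest-4* was 0.80 with a standard error of 0.14 (edgeR adjusted p = 0.0956, or 0.011 with the replicate block), and it was a DEG in 8 of 8 fits that left out 1 library. *cest-2.2* averaged 4.96 ± 0.737 CPM in UA and 3.72 ± 0.466 CPM in control (SD, n = 4 each). Its log2 fold change was 0.41 with a standard error of 0.15 (edgeR adjusted p = 0.553), and it was 0.58 in replicates 1 and 2 and 0.26 in replicates 3 and 4. *cest-2.2* was a DEG in 5 of these 8 fits, but not without UA replicate 1, UA replicate 3 or control replicate 2. With the replicate block *cest-1.1* was also a DEG, and lower in UA. It had 0.501, 0.692, 3.17 and 4.54 CPM in UA libraries, against 2.37, 1.73, 5.69 and 5.43 CPM in control libraries, lower in UA in 4 of 4 replicates but with overlapping conditions. Its log2 fold change was -0.77 with a standard error of 0.65 (edgeR adjusted p = 0.866), and -1.04 with the block (edgeR adjusted p = 0.194). *cest-33* averaged 21.8 ± 3 CPM in UA and 20.3 ± 0.825 CPM in control and was no DEG.

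Among 18 genes of the lysosomal membrane, 3 were DEGs, all higher in UA, or 16.7% against 5.67% of all genes in either direction. This list was chosen with earlier results of these data known, and its share was not tested. *ncr-1*, a homolog of the Niemann-Pick C1 sterol transporter, had 44.99, 38.96, 16.78 and 15.99 CPM in UA libraries, against 16.65, 14.46, 13.06 and 12.93 CPM in control libraries. UA replicates 1 and 2 stood far above the other 6 libraries, and UA replicates 3 and 4 lay within or just above the control range. The log2 fold change was 1.03 with a standard error of 0.32 (edgeR adjusted p = 0.422). It was 1.44 in replicates 1 and 2 and 0.33 in replicates 3 and 4, and *ncr-1* was a DEG in 8 of 8 fits that left out 1 library.

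The remaining lysosomal DEGs were lower in abundance. *ncr-2*, the paralog of *ncr-1*, averaged 1.67 ± 0.236 CPM in UA and 1.21 ± 0.161 CPM in control (SD, n = 4 each), with a log2 fold change of 0.46 and a standard error of 0.19 (edgeR adjusted p = 0.616). *lmp-2*, a LAMP-like gene, averaged 3.145 ± 0.426 CPM in UA and 2.315 ± 0.363 CPM in control (SD, n = 4 each), with a log2 fold change of 0.44 and a standard error of 0.17 (edgeR adjusted p = 0.5804). Each was a DEG in 4 of the 8 fits that left out 1 library. *ncr-2* lost the call without UA replicate 3 or 4 or control replicate 1 or 4, and *lmp-2* without UA replicate 1 or 4 or control replicate 2 or 3. *unc-32*, a V-ATPase subunit and the most abundant of the list, averaged 180.8 ± 5.09 CPM in UA and 183.3 ± 5.996 CPM in control.

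**Figure D3:**
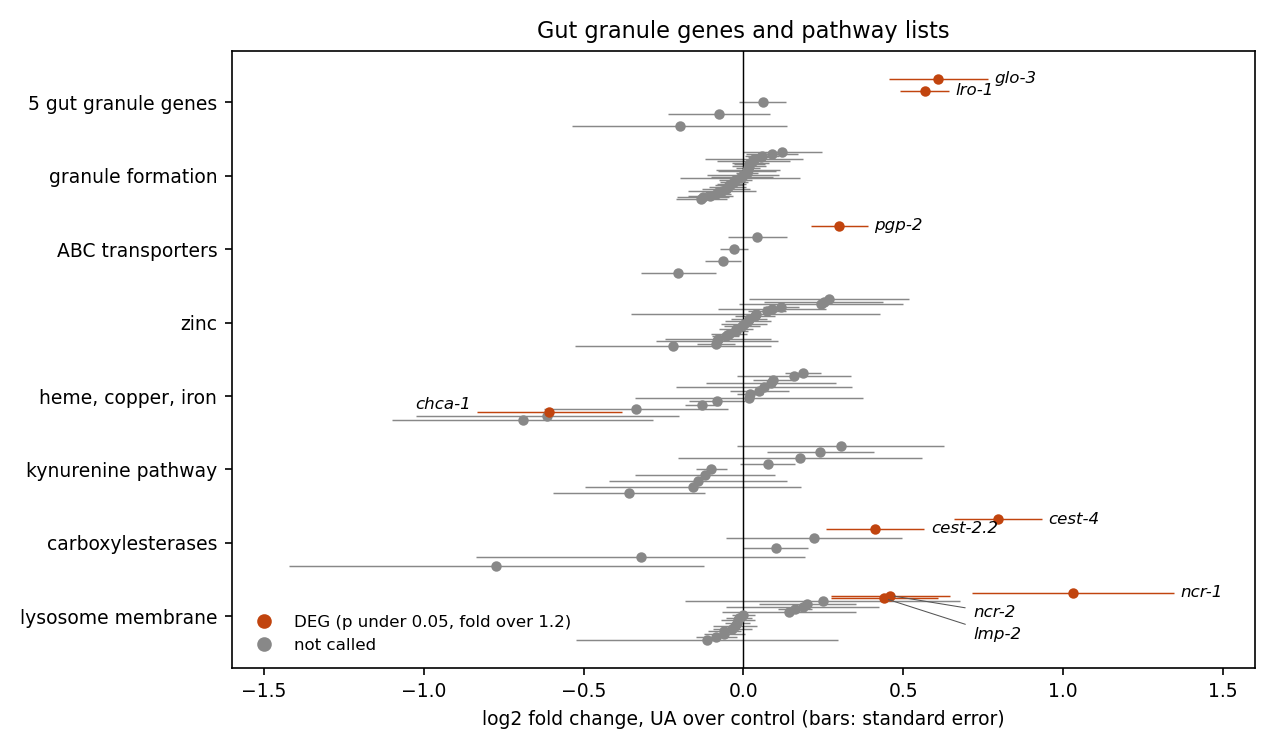
Log2 fold change of UA over control for the 5 genes and for the tested genes of the 7 lists, 1 point per gene with its standard error as a bar, DEGs in orange and named. *lro-1* (0.57) and *glo-3* (0.61), chosen with these values known, stand right of all 28 genes of granule formation, which run from -0.13 to 0.12. Of the 7 DEGs of the lists, 6 lie right of 0.

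The genes with the most similar pattern were sought among 10935 genes with a mean of at least 1 CPM, by the root mean square difference of log2 CPM over the 8 libraries after each gene's mean was removed. A smaller value is more alike, and since the measure contains the difference between the conditions it describes the libraries and tests nothing. The nearest to *lro-1* were F52C6.12 at 0.077, *madf-9* and *kgb-2* at 0.112 each, and *cpr-9* and *lys-4* at 0.115 each, against a spread of *lro-1* itself of 0.307. *cpr-9* encodes a cathepsin B-like protease and averaged 608.4 CPM in UA and 450.3 CPM in control. *lys-4* encodes a lysozyme and averaged 271.2 CPM in UA and 178 CPM in control.

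Of the other gut granule genes, *glo-3* was nearest to *lro-1*, at 0.197 and rank 182 of the 10935. *glo-4* followed at 0.280 (rank 1497), *glo-1* at 0.355 (rank 6713) and *cdf-2* at 0.573 (rank 10257). The nearest to *glo-3* were *dhs-14*, which encodes a short-chain dehydrogenase, at 0.075 and F13B12.2 at 0.102. *dhs-14* averaged 13.9 CPM in UA and 9.32 CPM in control, and F13B12.2 averaged 8.24 CPM in UA and 5.09 CPM in control. The nearest to *glo-1* were *nrf-6* (0.067) and C28H8.14 (0.068), to *glo-4* *bltp-3B* (0.036) and *wdfy-3* (0.041), and to *cdf-2* R12C12.9 (0.195) and *clec-80* (0.197). No member was among the nearest genes of another.

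**Figure D4:**
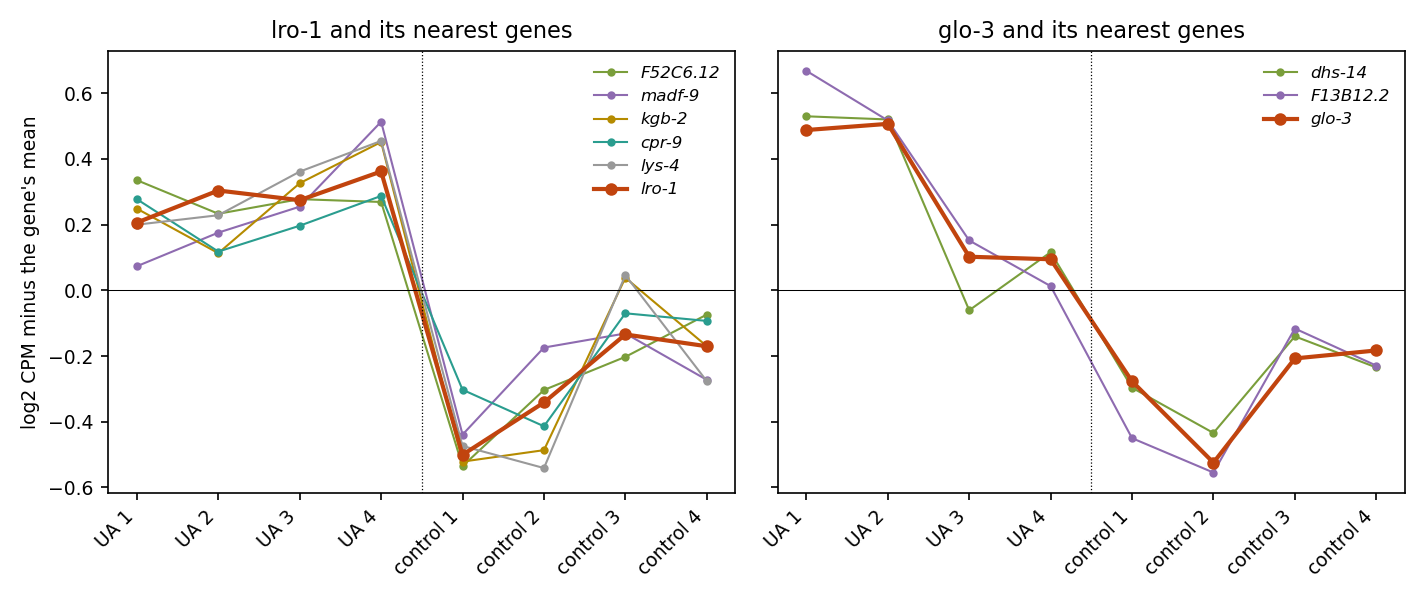
Log2 CPM minus the gene's mean in each UA and control library for *lro-1* with its 5 nearest genes (left) and *glo-3* with its 2 nearest genes (right), where lines only join the points of a gene. *lro-1* is about level over the UA libraries and lowest in control replicate 1, whereas *glo-3* is highest in UA replicates 1 and 2 and lowest in control replicate 2.

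Markers of the tissues of the whole animal were set beside these values, and their part in the difference of *lro-1* and *glo-3* was not tested. Of 9 tested intestinal markers, 1 was a DEG, or 11.1% against 5.67% of all genes. *elt-2*, the GATA factor of the intestine, had 8.56, 9.87, 8.70 and 6.91 CPM in UA libraries, against 4.46, 4.73, 6.55 and 6.54 CPM in control libraries, with no overlap. Its log2 fold change was 0.61 with a standard error of 0.17 (edgeR adjusted p = 0.343), and it was a DEG in 8 of 8 fits that left out 1 library. DESeq2 called *elt-2* at an adjusted p under 0.05. Of the 9 markers, 6 had a log2 fold change above 0 and 3 below it. Above 0 were also *ges-1* at 0.20 (standard error 0.10), *elt-7* at 0.27 (standard error 0.15) and *act-5* at 0.19 (standard error 0.20). So were *ifc-2* at 0.19 (standard error 0.07) and *cpr-6* at 0.19 (standard error 0.12). Below 0 were *vha-6* at -0.12 (standard error 0.22), *nhx-2* at -0.05 (standard error 0.14) and *ifb-2* at -0.17 (standard error 0.13). Apart from *elt-2*, none was a DEG. The median log2 fold change of the 9 intestinal markers was 0.19. Their summed level was 1056 to 1281 CPM in UA and 830.6 to 1219 CPM in control. Most of this sum was *cpr-6*, with a mean of 780 CPM in UA and 682.1 CPM in control, so it says little about the other markers. The summed CPM in UA and in control overlapped for the 10 germ line, 6 body wall muscle, 5 pharynx and 7 neuron markers, with no DEG. It was 4292 to 4495 in UA and 4380 to 4511 in control for germ line, 456.9 to 642.4 in UA and 384.6 to 709.1 in control for muscle, 48.3 to 87.9 in UA and 54.94 to 92.15 in control for pharynx, and 257.9 to 317.3 in UA and 267.7 to 301.3 in control for neurons. The summed CPM of the 5 tested hypodermal markers overlapped too, at 219.9 to 259.3 in UA and 255.9 to 298.1 in control. Of these markers 1 was a DEG, or 20% against 5.67% of all genes. This was the cuticle collagen *col-19*, at 73.25 ± 21.7 CPM in UA and 106.3 ± 19.5 CPM in control (SD, n = 4 each). Its log2 fold change was -0.54 with a standard error of 0.20 (edgeR adjusted p = 0.558). *col-19* was a DEG in 4 of the 8 fits and lost the call without UA replicate 1 or 2 or control replicate 1 or 4. No marker on these lists was at 0 in all libraries.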

How the data were processed

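RNA was sequenced from 4 UA and 4 control populations of N2 nematodes with a stranded mRNA kit. The authors aligned filtered reads to WBcel235 with HISAT and counted fragments per RefSeq gene with featureCounts 1.6.2, and the deposited counts are not normalized. The deposited table also gives the exon length of each gene in bases, here used for TPM. Whether strand was used in counting is not given in the sources used here.

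All 8 libraries were analysed. Genes passing filterByExpr (13720) were scaled by TMM and compared with edgeR 4.0.16 (quasi-likelihood F test, R 4.3.3), and p-values were adjusted by the Benjamini-Hochberg method. DESeq2 1.42.0 was an alternative, beside other scalings and filters, single libraries left out, pairs of replicates, a stricter threshold and a replicate block. A prior count of 2 was used for log2 CPM. Plots were drawn with matplotlib 3.10.9 in Python 3.11.15.

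Libraries of a condition differed by more than sampling noise (chi-square per degree of freedom 7.56 to 58.4). The populations were harvested independently, and p-values measure the spread between these populations. Deviations from the condition means of UA and control libraries with the same replicate number correlated across genes at 0.310, 0.246, 0.191 and 0.353. The replicate number was therefore used as a block in an alternative fit, while the main fit treats the libraries as unpaired. A pairing by number rests on the data, since the labels do not say that a number was shared. Only 2 of the 4 UA libraries correlated best with the control of their own number. UA replicate 1 did so with control replicate 2 and UA replicate 3 with control replicate 4, as the grouping of replicates 1 and 2 against 3 and 4 would also give.

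The members and lists were chosen with earlier results of these data known. Named are all members, the DEGs (up to 6) and the most abundant gene of each list, the nearest tested neighbours, the genes of most similar pattern (5 for *lro-1*, 2 for each other member) and marker DEGs. *glo-2*, *ttm-1*, *hizr-1*, *mtl-1*, *ftn-1*, *cest-1.1* and the tested intestinal markers other than *elt-2* were added after their values were seen. They were added for their role, direction or call under the block. Of 106 listed pathway genes, 105 were matched by symbol. Sequences are not used here.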

Additional observations from a re-analysis of the deposited data

Results flagged for a closer look

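*chca-1*, the copper uptake gene that was lower in UA, had a control library apart from the others. Control replicate 3 stood at 4.10 CPM while the other 3 control libraries were at 2.88, 2.64 and 2.74 CPM, and the gap to the nearest of them took 0.832 of the range of the 4 control libraries, just above Dixon's critical value for 4 samples. The UA libraries held no such value. This was the only library to stand out among 24 sets of 4 libraries checked, and chance alone would give about 1 in 20. Without control replicate 3 the log2 fold change of *chca-1* was -0.44 and it was no longer a DEG. The value also differed between the pairs of replicates, -0.16 in replicates 1 and 2 and -1.097 in replicates 3 and 4.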

How the results depend on the processing

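Of 80 values that the log2 fold changes of the 5 gut granule genes took under the alternatives, 78 moved by less than the SD between replicates. The 2 that moved more were those of *glo-3*, which was 0.91 in replicates 1 and 2 alone and 0.30 in replicates 3 and 4 alone. With 1 library left out, *lro-1* ran from 0.50 to 0.62, *glo-3* from 0.54 to 0.68, *glo-1* from -0.17 to -0.01, *glo-4* from 0.02 to 0.13 and *cdf-2* from -0.56 to -0.03. With the replicate block they were 0.57, 0.60, -0.07, 0.06 and -0.22 in the same order.

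All genes gave 778 DEGs, and 641 to 937 with 1 library left out. Of the 13720 genes, 1616 were DEGs in replicates 1 and 2 alone, 761 in replicates 3 and 4 alone, and 13 had an adjusted p under 0.05. The 7 DEGs among the 100 pathway genes became 12 (5 higher, 7 lower in UA) in replicates 1 and 2, near the share of all genes there. They became 11 (8 higher, 3 lower) in replicates 3 and 4, a larger share than that of all genes there, which was not tested. They were 0 at an adjusted p under 0.05, and 4 to 7 with 1 library left out, lowest without UA replicate 3. With the replicate block they were 9 (6 higher, 3 lower), and all genes gave 1094 DEGs. DESeq2 gave 773 DEGs and 169 genes at an adjusted p under 0.05, and the 13 of edgeR became 5 without UA replicate 1, 6 without control replicate 1, 7 without control replicate 2, 8 without UA replicate 4 or control replicate 4, 16 without control replicate 3, 115 with the block, 45 with no filter on low counts, 546 in replicates 1 and 2 alone and 26 in replicates 3 and 4 alone. The causes were not tested. Depth limits *glo-1*, whose counting error is near its spread in UA, and in part *glo-3*, whose counting error in control is 8.29% against a spread of 10.5%. For *lro-1*, *glo-4* and *cdf-2* the spread between populations is well above counting error.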
